A study of Caenorhabditis elegans with 12 samples.

Results

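The catalase and superoxide dismutase genes of Caenorhabditis elegans were followed in whole-worm RNA of 2 strains at 4 ages. The set holds ctl-1, ctl-2, ctl-3 and sod-1 to sod-5, found through their NCBI gene numbers, and MXLOC_007021, a locus that the authors assembled from the reads over the 3 catalase genes. These 8 annotated genes and 1 assembled locus are 9 of the 22191 features in the mRNA table. CN30 carries the genotype label trans-nuclear and N2 the label wild type, and both strains ate the E. coli strain OP50. Day 0 was sampled with 3 libraries per strain and days 6, 9 and 12 with a single one, 12 libraries in all. The series title names mitochondrial polymorphisms and age. The labels name neither the nuclear nor the mitochondrial parent of CN30 nor the stage at day 0, and they do not tie the 3 replicates of day 0 to separate cultures. The p-values below therefore measure only the spread between these samples, which may be technical. In the age and interaction fits days 6, 9 and 12 are pooled as a later class, whose spread includes change between those days. In the strain fit at days 6 to 12 the spread is that of the strain difference from day to day.

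Superoxide dismutases turn superoxide, a by-product of respiration, into hydrogen peroxide and oxygen, and catalases break hydrogen peroxide down to water and oxygen. In C. elegans sod-1 and sod-5 encode cytosolic copper/zinc enzymes, sod-4 an extracellular copper/zinc enzyme, and sod-2 and sod-3 the manganese enzymes of mitochondria. The catalase of ctl-2 works in peroxisomes and that of ctl-1 in the cytosol, and sod-3 is a much used target of the insulin-pathway transcription factor DAF-16.

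Expression is given as the authors' FPKM, in which each gene's fragments are divided by its length and by the depth of its library, so levels can be set side by side between genes. The FPKM of the mRNA table summed to 874694 to 911271 per library at day 0 and to 726252 to 779302 at days 6 to 12, and the depth in reads is unknown. N2 day 0 replicate 2 stood apart: its log2(FPKM + 1) values correlated at 0.951 and 0.946 with the other N2 libraries of that day, which correlated with each other at 0.991. The 3 CN30 day-0 libraries correlated at 0.987 to 0.993.

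The 3 catalase genes lie side by side on the minus strand of chromosome II in WBcel235. In the direction of transcription ctl-3 (chrII:14307798-14310779) comes first, 1537 bases before ctl-1 (chrII:14303568-14306260), and ctl-2 (chrII:14299556-14302027) follows after 1540 bases. They encode 512, 497 and 500 residues. All 3 share an exon of 645 bases followed by an exon of 273 bases. MXLOC_007021 (chrII:14299657-14310743) has 7 assembled transcripts, and each of them joins catalase genes: 5 join 2 genes and 2 join all 3. Of their 39 exon blocks, 37 lie inside an annotated catalase exon and 13 equal one.

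In 6 of the exons of these joined transcripts the sequence switches from 1 gene to the next in the middle of an exon. Counted from 1 at the exon's 5′ end, the switch falls after base 192, 240 or 519 of the exon of 645 bases and after base 225 of the exon of 273 bases. In 6 of 6 cases the second piece starts at the base that comes next in its own gene's exon. All 14 exons of these classes, switched or not, thus kept the full 645 or 273 bases. The joined transcripts are 1539 to 1606 bases long, against 1482 to 1631 bases for the annotated ones. Whether the joined transcripts exist in the worm, or arise because reads fit more than 1 copy, was not tested. The share of reads given to each catalase gene is uncertain for this reason.

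**Figure D1:**
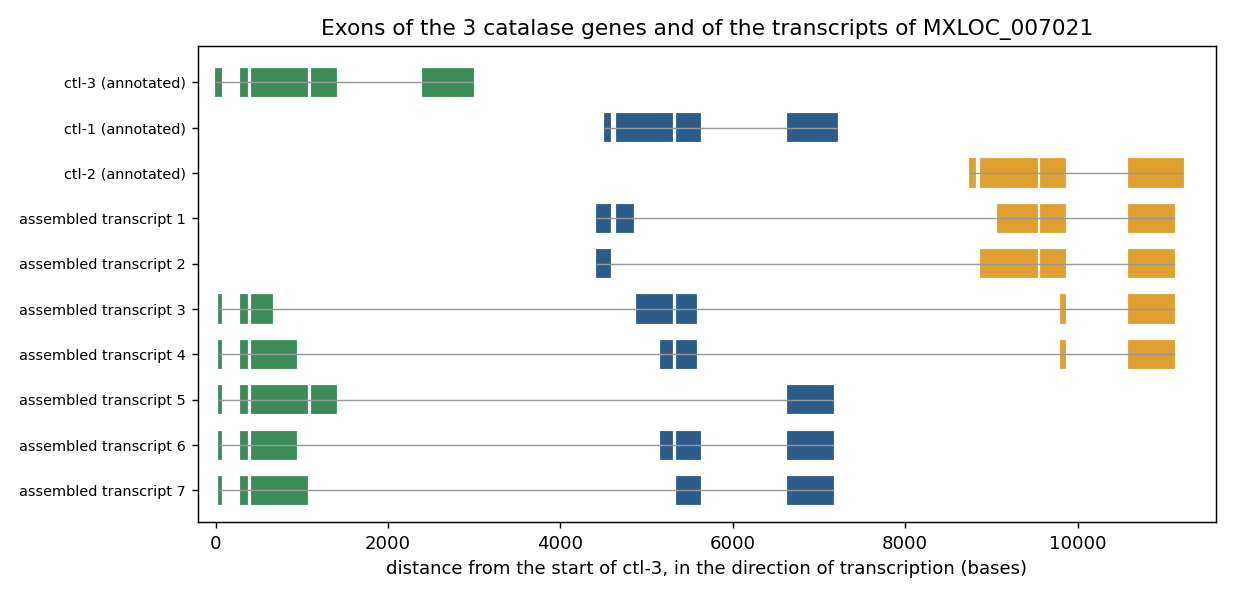
Exons of ctl-3, ctl-1 and ctl-2 as annotated (top 3 rows) and of the 7 transcripts assembled at MXLOC_007021, drawn to scale as the distance in bases from the start of ctl-3 in the direction of transcription. Colours give the catalase gene that each block lies in (green ctl-3, blue ctl-1, yellow ctl-2), and each assembled transcript holds 2 or 3 colours.

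The strains differed in which catalase gene carried the signal. In CN30 ctl-1 had 6.59, 7.53 and 4.42 FPKM at day 0, then 8.43 at day 6, 1.22 at day 9 and 0.99 at day 12. In N2 it had 26.78, 19.07 and 25.89 FPKM at day 0, then 24.56, 23.25 and 12.76 at days 6, 9 and 12. Every CN30 library was below every N2 library, at 0.99 to 8.43 against 12.76 to 26.78 FPKM. Among all 15719 genes compared over the 12 libraries, 1.34% did not overlap between the strains in either direction and 0.541% were lower in CN30 in this way. ctl-1 was the only one of the 9 members with no overlap between strains.

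For ctl-1 at day 0 the mean was 6.18 ± 1.6 FPKM in CN30 and 23.9 ± 4.22 FPKM in N2 (SD, n = 3 each), a difference of -1.81 ± 0.21 (SE) on the log2(FPKM + 1) scale. Its adjusted p in limma, with Benjamini-Hochberg adjustment over all genes tested, was 0.0084. Leaving out N2 replicate 1 gave an adjusted p of 0.0567 and leaving out CN30 replicate 1 one of 0.0739, with the difference at -1.72 and -1.86. In a joint fit of all 12 libraries, which share 1 estimate of the spread, the day-0 call was lost (adjusted p = 0.0986). Over days 6 to 12, with the days as pairs, the difference was -2.56 ± 0.41 (adjusted p = 0.0337), and the call was lost without a filter (adjusted p = 0.0728) or without the day term (0.0852). The CN30 over N2 ratio was 0.343 at day 6, 0.0525 at day 9 and 0.0776 at day 12, so the strains lay further apart at days 9 and 12 than at day 6. With age ctl-1 changed by -1.02 ± 0.60 in CN30 (adjusted p = 0.158) and -0.27 ± 0.27 in N2 (adjusted p = 0.396), and without CN30 day 6 the CN30 value was -1.75 with an adjusted p of 0.000496.

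For ctl-2, the peroxisomal enzyme's gene, the order of the strains was the opposite. CN30 had 30.4, 19.88 and 24.37 FPKM at day 0, then 7.59, 1.38 and 8.23 at days 6, 9 and 12. N2 had 5.83, 12.93 and 8.08 FPKM at day 0, then 0.27 at day 6, 0 at day 9 and 1.75 at day 12. The strains did not overlap at day 0, and CN30 was above N2 at each later day, but the difference at day 0 did not pass (1.42 ± 0.28, adjusted p = 0.0538). Without N2 day 0 replicate 2, the library that stood apart, it was 1.70 with an adjusted p of 0.00313. With any other day-0 library left out the difference did not pass (adjusted p = 0.0977 to 0.229). Nor did it pass with a replicate block (adjusted p = 0.187) or in the joint fit (0.202). The later libraries, days 6 to 12, had ctl-2 higher in CN30 (1.92 ± 0.32, adjusted p = 0.0371), a call lost without a filter (adjusted p = 0.0771) or without the day term (0.122). In that fit ctl-2 cleared the filter of 1 FPKM in 3 libraries only through CN30, since N2 reached 1 FPKM only at day 12. The value is therefore a description.

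With age ctl-2 fell in both strains. At days 6 to 12 it averaged 5.73 ± 3.78 FPKM in CN30, against 24.9 ± 5.28 at day 0 (log2 difference -2.15 ± 0.53, adjusted p = 0.00854). In N2 it averaged 0.673 ± 0.942 FPKM at days 6 to 12 and 8.95 ± 3.63 at day 0 (-2.65 ± 0.44, adjusted p = 0.00166). In the N2 fit ctl-2 cleared the filter only through day 0, as only day 12 of the later libraries reached 1 FPKM. Day 9 was listed at 0, so the N2 value is a description. Later and day-0 libraries did not overlap within either strain. Of all genes 80.9% passed with age in CN30 and 72.7% in N2, and the share without overlap within a strain was not computed. On the other strand Y54G11A.7 overlaps 65 exon bases of ctl-2, at 8.87 to 14.16 FPKM over the libraries.

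The third gene, ctl-3, had 2.33, 4.12 and 7.66 FPKM in CN30 at day 0, then 9.87, 18.27 and 17.15 at days 6, 9 and 12. In N2 it was listed at 0 in all 3 day-0 libraries, then at 16.88, 6.31 and 13.6 FPKM at days 6, 9 and 12. An exact 0 in such a table can be an estimate that failed, so no fold against N2 day 0 is given. The day-0 strain comparison passed (adjusted p = 0.0167), as did the age comparison in N2 (adjusted p = 0.00011), and in both ctl-3 cleared the filter on low values only through the group where it was not 0. Without N2 replicate 1 or 3 the strain comparison had an adjusted p of 0.0866 or 0.0526.

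In CN30 ctl-3 rose with age, to 15.1 ± 4.56 FPKM at days 6 to 12 against 4.70 ± 2.71 at day 0 (1.56 ± 0.39, adjusted p = 0.00918). In the later libraries the strains did not differ beyond the spread (0.33 ± 0.41, adjusted p = 0.59), and the order changed from day to day, with N2 the higher at day 6 and CN30 at days 9 and 12.

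Taken as a share of the 3 catalase genes' summed FPKM, ctl-1 held 16.8, 23.9 and 12.1% in CN30 at day 0 and 32.6, 5.85 and 3.75% at days 6, 9 and 12. In N2 it held 82.1, 59.6 and 76.2% at day 0 and 58.9, 78.7 and 45.4% at days 6, 9 and 12. The share of ctl-3 in CN30 was 5.93, 13.1 and 21% at day 0 and 38.1, 87.5 and 65.0% at the later days. The largest of the 3 genes was ctl-2 in 3 CN30 libraries, all of day 0, and ctl-3 in the other 3. In N2 it was ctl-1 in 5 libraries and ctl-3 in 1, that of day 12.

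The 3 genes summed gave a narrower picture than any single one. CN30 had 39.32, 31.53 and 36.45 FPKM at day 0, against 32.61, 32.0 and 33.97 in N2. At days 6, 9 and 12 the sum was 25.89, 20.87 and 26.37 FPKM in CN30 and 41.71, 29.56 and 28.11 in N2. CN30 was below N2 at each of the later days, and at day 0 the strains overlapped.

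MXLOC_007021 itself had 42.15, 45.08 and 41.69 FPKM in CN30 at day 0 and 59.44, 58.8 and 34.74 at days 6, 9 and 12. N2 had 61.18, 33.62 and 55.78 FPKM at day 0 and 51.15, 62.98 and 42.09 at days 6, 9 and 12. The strains overlapped at day 0 and changed order between days. Neither strain comparison passed, with -0.18 ± 0.22 at day 0 (adjusted p = 0.641) and -0.05 ± 0.11 at days 6 to 12 (adjusted p = 0.77). Without N2 day 0 replicate 2 the day-0 difference was -0.44 with an adjusted p of 0.0129. With any other day-0 library left out the difference did not pass (adjusted p = 0.737 to 0.979). With age MXLOC_007021 changed by 0.20 ± 0.21 in CN30 (adjusted p = 0.399), or 0.45 without day 12 (adjusted p = 0.00207), and by 0.08 ± 0.25 in N2 (adjusted p = 0.795).

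The assembled locus held more FPKM than its 3 genes together in every library, between 51.2 and 73.8% of the locus sum. With all 4 features added up, CN30 had 81.47, 76.61 and 78.14 FPKM at day 0 and 85.33, 79.67 and 61.11 at days 6, 9 and 12. N2 had 93.79, 65.62 and 89.75 FPKM at day 0 and 92.86, 92.54 and 70.2 at days 6, 9 and 12. The summed locus did not differ beyond the spread at day 0 (-0.06 ± 0.14, adjusted p = 0.806) or at days 6 to 12 (-0.18 ± 0.06, adjusted p = 0.124). After median-ratio rescaling, which scales each library by the median ratio of its genes to their geometric mean over the libraries, the later difference passed (-0.33, adjusted p = 0.0379), with CN30 the lower. It also did not pass with age in CN30 (-0.08 ± 0.13, adjusted p = 0.604) or in N2 (0.04 ± 0.18, adjusted p = 0.841). A strain difference in 1 annotated catalase gene cannot be told apart from another division of reads among the copies.

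**Figure D2:**
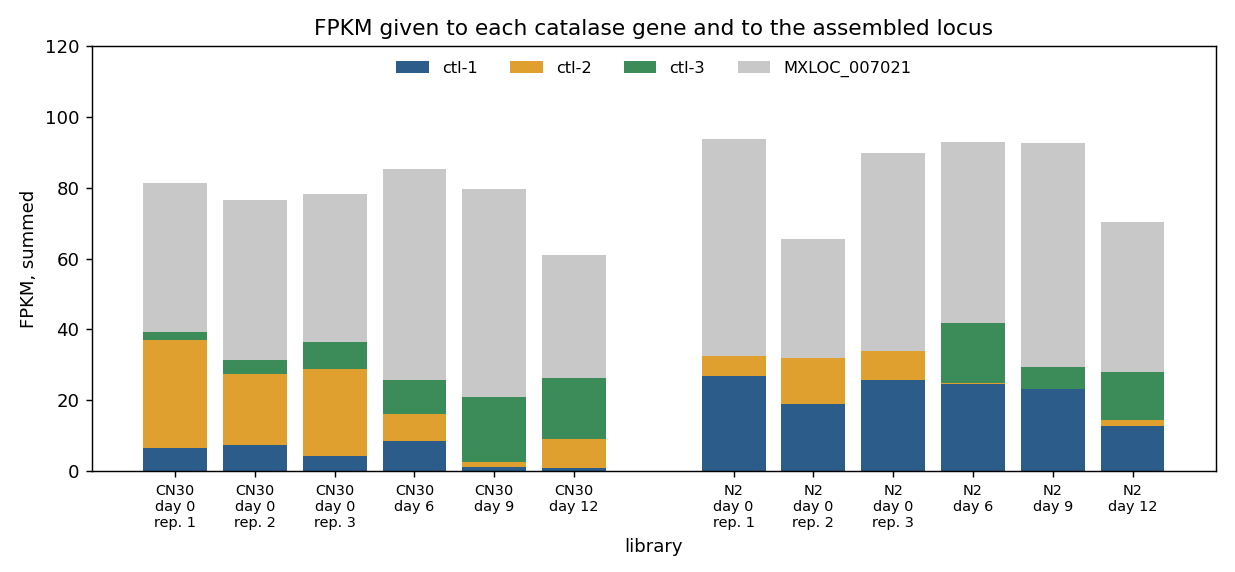
FPKM given to ctl-1, ctl-2, ctl-3 and MXLOC_007021 in each of the 12 libraries, stacked, with CN30 on the left and N2 on the right. The totals run from 61.11 to 85.33 FPKM in CN30 and from 65.62 to 93.79 FPKM in N2, while the blue ctl-1 part is small in every CN30 library and is the largest of the 3 genes in 5 of 6 N2 libraries.

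Among the superoxide dismutases the order of levels was steady. sod-1 was the highest of the 9 features and sod-2 the second in 12 of 12 libraries, and MXLOC_007021 came next in 11 of them. In CN30 at day 12 sod-4 took that place. sod-1 stood between the 97.1 and the 98.4 percentile of all mRNA features and sod-5 between the 26.1 and the 53.0 percentile. The lower places were less certain: at day 0 in CN30 the ranges of sod-3, ctl-1 and ctl-3 overlapped, and in N2 those of ctl-2, sod-4 and sod-3.

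sod-1, the main cytosolic copper/zinc enzyme (chrII:6972706-6973887, minus strand, 180 residues), had 205.05, 211.82 and 195.7 FPKM in CN30 at day 0 and 231.94, 211.55 and 181.22 at days 6, 9 and 12. N2 had 226.55, 226.68 and 248.47 FPKM at day 0 and 283.96, 266.71 and 193.09 at days 6, 9 and 12. CN30 was the lower strain at each day and the day-0 libraries did not overlap, but neither difference passed. It was -0.19 ± 0.06 at day 0 (adjusted p = 0.162) and -0.24 ± 0.07 at days 6 to 12 (adjusted p = 0.0869). The age comparisons gave 0.02 ± 0.10 in CN30 (adjusted p = 0.851) and 0.07 ± 0.15 in N2 (adjusted p = 0.714). After quantile normalization the CN30 value was 0.28 (adjusted p = 0.0496), and without N2 day 12 the N2 value was 0.24 (adjusted p = 0.0352).

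Exons of sod-1 were also covered by an assembled locus, and how reads were divided between them was not tested. The assembled locus MXLOC_006154 (chrII:6970876-6973880, minus strand) has 1 transcript of 2111 bases that runs from sod-1 into its neighbour art-1, with 713 bases in exons of sod-1, 928 in exons of art-1 and 470 in neither. It had 141.58, 145.64 and 147.37 FPKM in CN30 at day 0 and 121.4, 108.82 and 97.71 at days 6, 9 and 12. In N2 it had 151.44, 122.94 and 139.47 FPKM at day 0 and 142.45, 119.01 and 101.3 at days 6, 9 and 12. It fell with age in CN30 (-0.41 ± 0.09, adjusted p = 0.00526), and in N2 the age difference was -0.20 ± 0.14 (adjusted p = 0.255). art-1 itself was listed at 0 in 10 of 12 libraries, and signal of sod-1 and of art-1 cannot be told apart in this locus.

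sod-4, the extracellular enzyme (chrIII:9496884-9500375, minus strand, 221 residues), had 9.7, 8.75 and 9.89 FPKM in CN30 at day 0, then 20.41, 35.14 and 45.11 at days 6, 9 and 12. N2 had 10.72, 6.31 and 9.65 FPKM at day 0, then 15.39, 18.17 and 27.26 at days 6, 9 and 12. The strains overlapped at day 0, every later library exceeded every day-0 library, and CN30 was the higher at each later day. With age sod-4 rose in CN30 (1.66 ± 0.27, adjusted p = 0.00139) and in N2 (1.09 ± 0.27, adjusted p = 0.00981). The strain difference was 0.11 ± 0.19 at day 0 (adjusted p = 0.751) and 0.67 ± 0.13 at days 6 to 12 (adjusted p = 0.0448). The later call was lost after quantile normalization (adjusted p = 0.0859) and median-ratio rescaling (0.0575), without a filter (0.0808) or the day term (0.238), and in a joint fit of all 12 libraries (0.143).

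The share of sod-4 in the summed FPKM of the 3 copper/zinc genes was 4.5, 3.96 and 4.79% in CN30 at day 0 and 8.04, 14.1 and 19.7% at days 6, 9 and 12. In N2 it was 4.5, 2.71 and 3.73% at day 0 and 5.13, 6.36 and 12.3% at days 6, 9 and 12. Both strains gained share on each later day, with CN30 above N2. The FPKM of MXLOC_006154, which covers exons of sod-1, are left out of these sums, and every share would be lower with them. Exons of ctr-9 on the other strand overlap 175 of the 1306 exon bases of sod-4, and whether the counting used strand is not given in the sources used here. ctr-9, which encodes a subunit of the transcription elongation complex PAF1, rose with age too, by 1.18 ± 0.08 in CN30 (adjusted p = 2.93e-05) and 0.98 ± 0.14 in N2 (adjusted p = 0.00068). Its part in the sod-4 values was not tested. Between the strains at days 6 to 12 ctr-9 differed by 0.14 ± 0.08 (adjusted p = 0.248).

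sod-5, the minor cytosolic enzyme (chrII:4417633-4419130, plus strand, 178 residues), was the lowest dismutase gene. It had 1.01, 0.33 and 0.86 FPKM in CN30 at day 0 and 1.61, 3.05 and 2.55 at days 6, 9 and 12. N2 had 0.93, 0.2 and 0.89 FPKM at day 0 and 0.63, 0.78 and 0.46 at days 6, 9 and 12. The 3 later CN30 libraries lay above all the other libraries. The fitted differences of sod-5 were 0.97 ± 0.23 with age in CN30 (adjusted p = 0.00673) and 1.05 ± 0.19 between CN30 and N2 at days 6 to 12 (adjusted p = 0.04). In both fits it cleared the filter of 1 FPKM in 3 libraries only through the later CN30 libraries, the group where it was high, so both values are descriptions. At day 0, and with age in N2, it was below the filter and was not tested. The later strain difference had an adjusted p of 0.0797 without a filter, 0.128 after quantile normalization and 0.0681 without the day term.

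**Figure D3:**
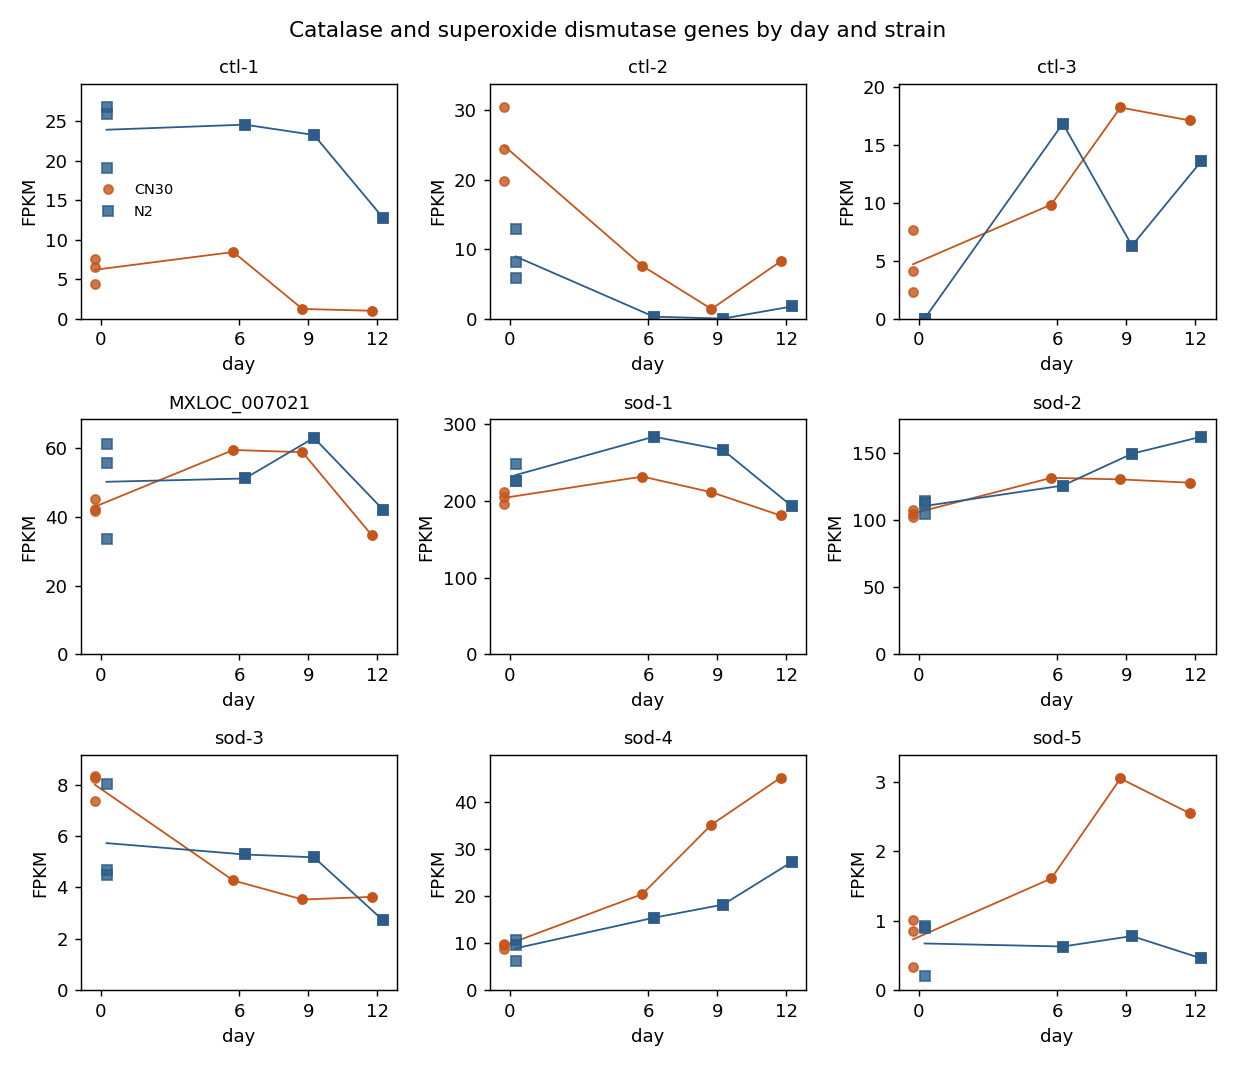
FPKM of the 9 features by day, with CN30 as orange circles and N2 as blue squares, each point 1 library and lines through the day-0 mean of 3 libraries and the single later ones. Axes start at 0 and differ between panels. ctl-1 in CN30 lies below N2 in every library, sod-4 climbs to 45.11 FPKM in CN30 and 27.26 in N2 at day 12, and sod-5 leaves its day-0 range only in CN30.

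sod-2, the main manganese enzyme of mitochondria (chrI:8434550-8435807, plus strand, 221 residues), had 107.39, 104.68 and 102.13 FPKM in CN30 at day 0 and 131.22, 130.06 and 127.62 at days 6, 9 and 12. N2 had 114.03, 104.32 and 112.44 FPKM at day 0 and 125.5, 149.15 and 161.74 at days 6, 9 and 12. Every later library of either strain was above every day-0 library. The rise with age was 0.31 ± 0.06 in CN30 (adjusted p = 0.00244) and 0.39 ± 0.11 in N2 (adjusted p = 0.0159). The median change of all genes was 0.24 in CN30 and 0.14 in N2. Without N2 day 9 the change in N2 was 0.37 with an adjusted p of 0.0562. With libraries rescaled by median ratios, which puts that median at -0.03 in both strains, the sod-2 change was 0.01 in CN30 (adjusted p = 0.861) and 0.21 in N2 (adjusted p = 0.104).

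The strains did not differ in sod-2 beyond the spread, with -0.07 ± 0.06 at day 0 (adjusted p = 0.487) and -0.16 ± 0.09 at days 6 to 12 (adjusted p = 0.284). Under the median-ratio rescaling the later difference was -0.31 (adjusted p = 0.049). On the other strand dpt-1 overlaps 21 exon bases of sod-2, and it fell with age in CN30 (-0.99 ± 0.38, adjusted p = 0.0489) and in N2 (-1.03 ± 0.24, adjusted p = 0.00754). The assembled locus MXLOC_002512, also on that strand, rose with age in CN30 (0.91 ± 0.11, adjusted p = 0.000381) and in N2 (1.16 ± 0.11, adjusted p = 0.00012), and the part of both neighbours in the sod-2 values was not tested.

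sod-3, the second manganese enzyme (chrX:17092753-17094306, plus strand, 218 residues), had 7.37, 8.34 and 8.26 FPKM in CN30 at day 0 and 4.27, 3.53 and 3.63 at days 6, 9 and 12. N2 had 4.47, 8.03 and 4.67 FPKM at day 0 and 5.28, 5.17 and 2.72 at days 6, 9 and 12. In CN30 the later libraries did not overlap those of day 0, and in N2 they did. Of all genes 80.9% passed with age in CN30. On the other strand lido-1 overlaps 24 and C08A9.3 65 of its exon bases, and lido-1 rose with age, by 1.25 ± 0.18 in CN30 (adjusted p = 0.000789) and 1.47 ± 0.16 in N2 (adjusted p = 0.000221). sod-3 fell with age in CN30 (-0.90 ± 0.12, adjusted p = 0.000523) and did not pass in N2 (-0.32 ± 0.30, adjusted p = 0.374). The difference between these age changes was -0.58 ± 0.34 and did not pass (adjusted p = 0.301).

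At day 0 sod-3 differed by 0.46 ± 0.21 between CN30 and N2 (adjusted p = 0.266). N2 replicate 2 was the library with 8.03 FPKM, and without it the difference was 0.69 with an adjusted p of 0.012. With any other day-0 library left out the difference did not pass (adjusted p = 0.365 to 0.528). The strain difference at days 6 to 12 was -0.13 ± 0.22 (adjusted p = 0.695). As a share of the summed FPKM of both manganese genes, sod-3 fell to 3.15, 2.64 and 2.77% in CN30 at days 6, 9 and 12, against 6.42, 7.38 and 7.48% at day 0. In N2 it had 3.77, 7.15 and 3.99% at day 0 and 4.04, 3.35 and 1.65% at the later days.

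**Figure D4:**
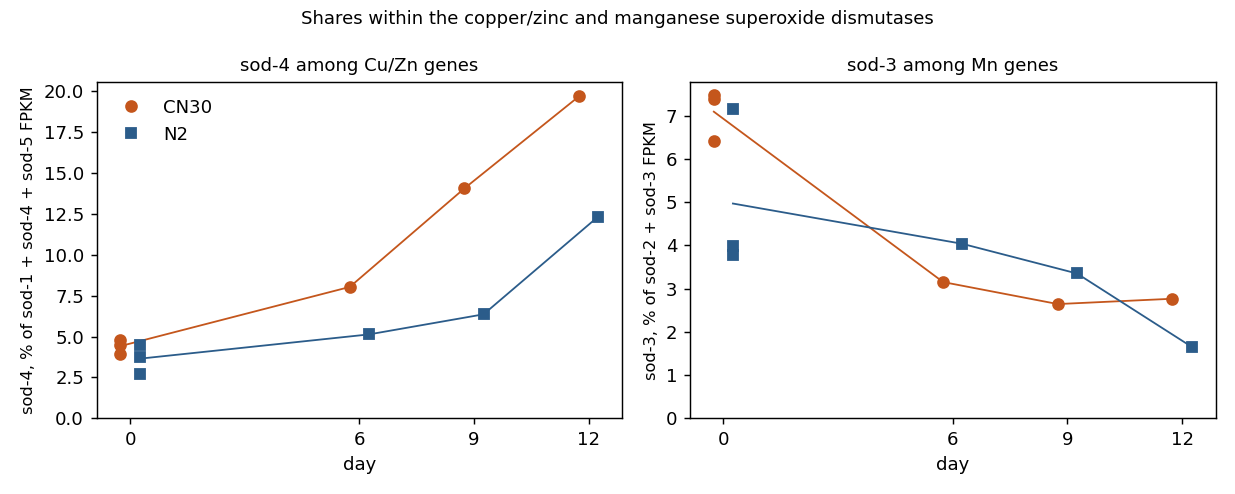
Left, the share of sod-4 in the FPKM of the copper/zinc genes sod-1, sod-4 and sod-5, without the assembled locus over sod-1. Right, the share of sod-3 in the FPKM of the manganese genes sod-2 and sod-3, both in percent by day, with CN30 as circles and N2 as squares, each point 1 library. The sod-4 share reaches 19.7% in CN30 and 12.3% in N2 at day 12, and the sod-3 share in CN30 is 2.64 to 3.15% after day 0.

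The annotated gene structures pair sod-1 with sod-5 and sod-2 with sod-3, and set the copper/zinc gene sod-4 apart from both pairs. The coding parts of exons 2 to 5 of sod-1 and sod-5 have the same 84, 159, 154 and 95 bases, after a first coding part of 48 bases in sod-1 and 42 in sod-5. sod-2 and sod-3 share coding parts of 53, 173, 137 and 48 bases and differ in the fourth exon, with 252 bases in sod-2 and 243 in sod-3. sod-4 has 6 coding exons of other sizes. Within the first pair sod-1 had at least 195.7 FPKM at day 0 in every CN30 library where sod-5 had at most 1.01. No assembled locus of either table joined 2 dismutase genes, and 0 lncRNA loci overlapped any of the 9 features.

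Counted over the 9 features, day 0 had 8 tested, with 1 higher in CN30 (ctl-3), 1 lower (ctl-1) and 6 that did not pass. The ctl-3 call is against N2 libraries all listed at 0, and it was tested only through CN30. Over all genes 3.68% passed at day 0, 2.07% higher and 1.61% lower. The higher share of those calls was 56.1%, against 38.1% after quantile normalization and 43.7% after median-ratio rescaling. The median difference of the 8 tested was 0.02, beside 0.08 for all genes. At this day 0 of 8 intestine markers, 0 of 8 hypodermis and 0 of 8 neuron markers passed, 2 of 8 oocyte and embryo markers were higher in CN30, and 1 of 8 body-wall muscle and 1 of 8 sperm markers were lower. The hypodermis markers had a median of 0.95. The intestine markers summed to 6163 to 6272 FPKM in CN30, against 4863 to 5770.45 in the N2 libraries. Of these intestine markers 4 had an unadjusted p under 0.05 in limma, of the hypodermis markers 0 and of the neuron markers 2. Their part in the differences was not tested.

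At days 6 to 12 all 9 were tested, 3 were higher in CN30 (ctl-2, sod-4 and sod-5), 1 was lower (ctl-1) and 5 did not pass. Of these sod-5 was tested only through CN30, and so was ctl-2, which reached 1 FPKM in N2 only at day 12. Over all genes 13% passed, 9.77% higher and 3.21% lower. The higher share of those calls was 75.3%, against 62.8% after quantile normalization and 39.6% after median-ratio rescaling. The 9 features had a median of -0.05, beside 0.06 for all genes. When any 1 of the 6 later libraries was left out, which leaves 2 pairs of days, 0 members passed in limma, with adjusted p-values for ctl-1 of 0.0547 to 0.165 and differences of -3.12 to -2.11. With a CN30 library left out only 8 were tested, since sod-5 was then below the filter. In these libraries 4 of 8 oocyte and embryo markers were lower in CN30, with sums of 2116 to 2710.05 FPKM in CN30, against 2476 to 3234 in the N2 libraries, and 3 of 8 neuron markers and 1 of 8 body-wall muscle markers were higher. Their part in the differences was not tested.

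With age, 4 of the 9 features rose in CN30 (ctl-3, sod-2, sod-4 and sod-5), 2 fell (ctl-2 and sod-3) and 3 did not pass. Here sod-5 was tested only through the later libraries. Over all genes 80.9% passed in CN30, 46.0% higher and 34.9% lower. In N2, 3 of 8 tested rose (ctl-3, sod-2 and sod-4), 1 fell (ctl-2) and 4 did not pass, where 72.7% of all genes passed, 40.7% higher and 32.0% lower. ctl-3 in N2 is listed at 0 throughout day 0 and was tested only through the later libraries. ctl-2 in N2 was tested only through day 0, since only day 12 of the later libraries reached 1 FPKM. Over all 12 libraries sod-2 and sod-4 were higher in each later library than in each day-0 library, which held for 35.8% of all genes, with 61.0% not overlapping in either direction.

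The age comparisons rest on whole worms in which the levels of cell type markers also moved. Fewer cells of a type and less RNA per cell cannot be told apart. Of the intestine markers 8 of 8 fell in CN30, with sums of 667 to 1847 FPKM at days 6 to 12 against 6163 to 6272 at day 0. In N2 5 of 8 fell, to 856 to 2899 FPKM against 4863 to 5770.45. All 8 oocyte and embryo markers rose in both strains. All 8 sperm and all 8 body-wall muscle markers fell in both. Of the hypodermis markers 8 of 8 fell in CN30 and 3 of 7 tested in N2, and of the neuron markers 3 rose and 1 fell in CN30 and 2 rose and 3 fell in N2. The part of these shifts in the members' age changes was not tested.

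**Figure D5:**
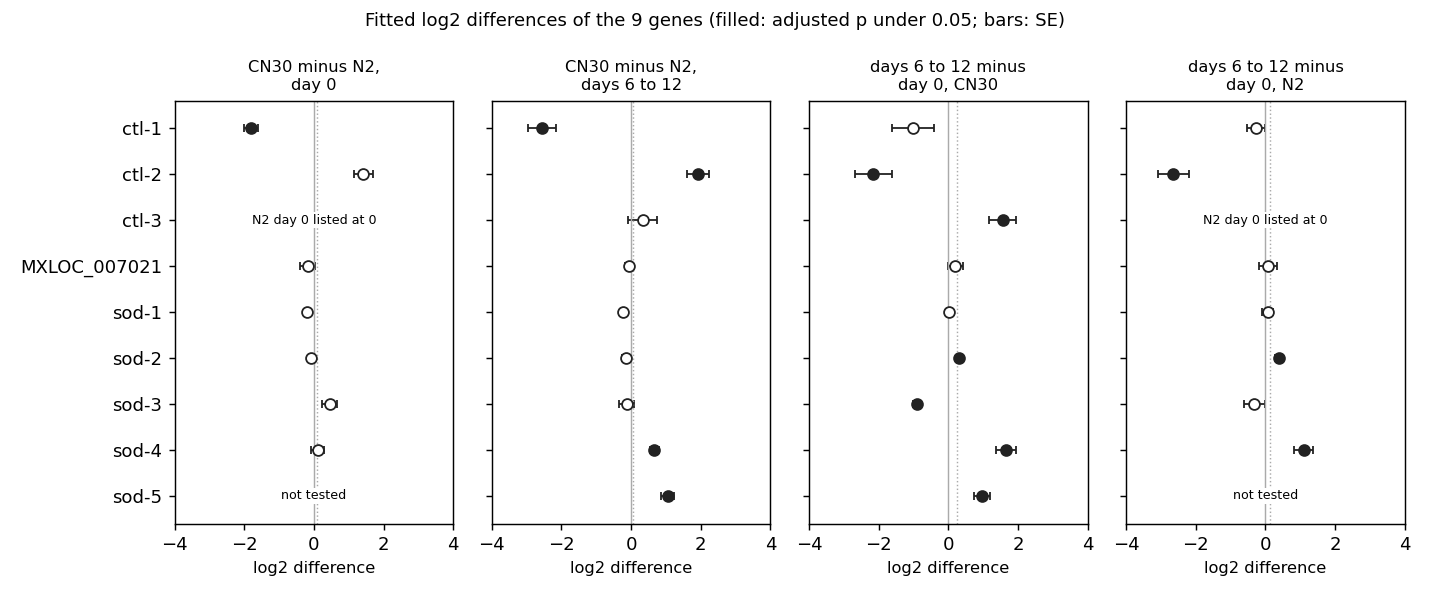
Fitted log2(FPKM + 1) differences of the 9 features in 4 comparisons, with bars of 1 SE, filled points for an adjusted p under 0.05 and a dotted line at the median of all genes tested. Comparisons with ctl-3 at 0 in N2 day 0, and those not tested, are written out. ctl-1 at -1.81 and -2.56 is the only feature below 0 and filled in both strain comparisons.

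Whether the strain difference itself changed with age was tested as an interaction over all 12 libraries, and 0 of 9 passed, where 2.0% of all genes did, 1.15% with a positive and 0.852% with a negative value. At an unadjusted p under 0.05 were ctl-3 (unadjusted p = 0.0038, adjusted p = 0.0747) and sod-5 (0.99 ± 0.34, unadjusted p = 0.0141, adjusted p = 0.119). The ctl-3 value rests on N2 day 0 libraries listed at 0 and passed with a pseudocount of 0.1 (adjusted p = 0.00679) and after median-ratio rescaling (adjusted p = 0.0458). Without N2 day 0 replicate 2, sod-5 had 1.21 with an adjusted p of 0.0439. In these interaction fits sod-5 cleared the filter of 1 FPKM in 3 libraries only through CN30, so its values are descriptions. For sod-4 the interaction was 0.56 ± 0.41 (adjusted p = 0.414), so its steeper course in CN30 did not exceed the spread.

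Other genes followed the members over the 12 libraries, and they are given as a description, since all share the same libraries, strains and ages. The pattern of ctl-1 was most like that of haf-6, a transporter gene (Pearson r = 0.955 of log2(FPKM + 1)), which averaged 14.3 FPKM in CN30 and 28.6 in N2 at day 0. The next were Y94H6A.10 (r = 0.926) and the histone gene his-60 (r = 0.923). ctl-2 was most like Y50D4B.6 (r = 0.936), the exchanger gene ncx-4 (r = 0.935) and F08B4.8 (r = 0.933). F08B4.8 averaged 179.8 FPKM in CN30 and 44.1 in N2 at day 0. For ctl-3 they were F37A4.1 (r = 0.963), wts-1 (r = 0.942) and the glutaredoxin gene glrx-3 (r = 0.940).

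sod-1 was most like the lectin gene clec-80 (r = 0.939), fbf-2 (r = 0.910) and mce-1 (r = 0.903), and sod-2 like kdin-1 (r = 0.968), F25B5.5 (r = 0.959) and B0303.4 (r = 0.957). sod-3 had pud-1.1 and pud-1.2 (r = 0.943 each, listed with identical values) and acd-2 (r = 0.942). sod-4 reached the highest likeness, with otub-2 (r = 0.99), asna-1 (r = 0.988) and adm-2 (r = 0.986). sod-5 had too few libraries at 1 FPKM for such a ranking.

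Other enzymes remove peroxides beside the catalases. Of the peroxiredoxin, thioredoxin and glutathione genes, 0 of 25 tested passed in limma between the strains at day 0 and 0 of 26 at days 6 to 12, and 7 and 4 had an unadjusted p under 0.05. Their medians were 0.20 and -0.01, beside 0.08 and 0.06 for all genes. With age 7 rose and 11 fell of 26 in CN30, and 8 rose and 9 fell of 25 in N2. Among all genes 46.0% rose and 34.9% fell in CN30, and 40.7% rose and 32.0% fell in N2. The glutathione peroxidase gene gpx-5 averaged 20.5 ± 9.06 FPKM in CN30 at days 6 to 12, against 141 ± 8.69 at day 0 (-2.82 ± 0.31, adjusted p = 0.000217). The methionine sulfoxide reductase gene msra-1 had 35.1 ± 24.7 FPKM in CN30 at days 6 to 12, against 503 ± 36.4 at day 0 (-4.01 ± 0.44, adjusted p = 0.000201). In the other direction gcs-1, whose enzyme catalyses the first step of glutathione synthesis, averaged 99.4 ± 10.4 FPKM in N2 at days 6 to 12, against 58.2 ± 6.39 at day 0 (0.76 ± 0.12, adjusted p = 0.00105).

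The peroxisome, where the catalase of ctl-2 works, was covered by a pair of lists. Of 10 biogenesis genes tested, 3 rose and 4 fell in each strain with age. Among all genes 46.0% rose and 34.9% fell in CN30, and 40.7% rose and 32.0% fell in N2. Between strains 0 of these 10 passed in limma at days 6 to 12, and 4 had an unadjusted p under 0.05. The 10 genes of peroxisomal beta-oxidation, whose oxidases make hydrogen peroxide, had 9 that fell in CN30 and 7 in N2, with medians of -1.71 and -1.66 beside 0.24 and 0.14 for all genes. dhs-28 averaged 53.3 ± 4.39 FPKM in CN30 at days 6 to 12, against 172 ± 4.35 at day 0 (-1.68 ± 0.08, adjusted p = 1.6e-05). Between the strains 3 of 9 were higher in CN30 at days 6 to 12, as were 9.77% of all genes. dhs-28 had 53.3 ± 4.39 FPKM in CN30 and 38.2 ± 2.60 in N2 (0.47 ± 0.07, adjusted p = 0.0327), and the acyl-CoA oxidase gene acox-1.1 had 29.4 ± 2.50 in CN30 and 19 ± 0.54 in N2 (0.60 ± 0.11, adjusted p = 0.04). The third was acox-3 (0.65 ± 0.13, adjusted p = 0.0449). At day 0, 1 of 10 was higher in CN30, acox-1.5, at 55.2 ± 4.47 FPKM against 33.6 ± 5.51 in N2 (0.71 ± 0.13, adjusted p = 0.0421). Over all genes 2.07% were higher at day 0.

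Among 16 regulators of antioxidant genes, 13 rose with age in CN30 and 0 fell, and in N2 10 rose and 1 fell, with medians of 1.0 and 0.72 beside 0.24 and 0.14 for all genes. The list was not split by whether a regulator raises or lowers antioxidant genes, so its counts and medians give no direction for those genes. Of all genes 46.0% rose and 34.9% fell in CN30, and 40.7% rose and 32.0% fell in N2. The kinase gene akt-1 of the insulin pathway averaged 142.3 ± 1.77 FPKM in CN30 at days 6 to 12, against 65.1 ± 2.80 at day 0 (1.12 ± 0.06, adjusted p = 2.01e-05). Heat shock factor hsf-1 had 77.7 ± 3.24 FPKM in N2 at days 6 to 12, against 35.7 ± 1.52 at day 0 (1.1 ± 0.08, adjusted p = 3.96e-05). Between strains at days 6 to 12, 3 of 16 were higher in CN30: the stress kinase genes sek-1 (0.86 ± 0.13, adjusted p = 0.0325) and nsy-1 (0.48 ± 0.10, adjusted p = 0.0487), and akt-2 (0.56 ± 0.12, adjusted p = 0.0456). Over all genes 9.77% were higher in this comparison. The insulin-pathway kinase gene sgk-1 was listed at 0 in CN30 at day 0, against 6.58 ± 2.65 FPKM in N2, and at 4.45 ± 0.92 in CN30 and 4.66 ± 0.80 in N2 at days 6 to 12. Such a 0 can be an estimate that failed, and at day 0 sgk-1 was tested only through N2 (adjusted p = 0.00524). Its interaction (adjusted p = 0.00639) rests on the same libraries. None of the other 15 regulators was called in either comparison, with 3 and 4 of the 16, sgk-1 included, at an unadjusted p under 0.05 in limma.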

How the data were processed

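The authors deposited FPKM per gene and library in a table of mRNA genes and one of lncRNA genes. HISAT and StringTie are the tools, and WBcel235 the build, in the submitters' processing notes, which give no versions. Per the file headers a further deposited table, in other units, lists exons and lengths in bases of assembled transcripts. The columns of both FPKM tables were matched to samples by strain, day and replicate, with 0 columns left over. CN30 is spelled NC30 in the sample titles. Of 19024 numbered genes, 18888 had a symbol in the annotation tables. The lncRNA table was used only for overlaps.

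The fits used log2(FPKM + 1) in limma 3.58.1 (R 4.3.3; lmFit and eBayes with a trend), over genes with at least 1 FPKM in at least 3 libraries of the fit. Two-sided p-values were adjusted over every gene in the fit (Benjamini-Hochberg), at a threshold of 0.05. There were 5 comparisons: the strains at day 0, the strains at days 6 to 12 with day as a factor, days 6 to 12 against day 0 in each strain, and the interaction of strain and age class. An exact permutation test of 3 against 3 libraries cannot go below 0.1 and was not used. The depth is unknown, so no counting interval is given. Whole reads could not be recovered from values with 2 decimals.

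The text gives all members in the strain and age comparisons, some of them in the interaction, and assembled loci that overlap a member on its strand. From the pathway lists it names some of the up to 3 called genes per comparison with the smallest p, not always the first. For each annotated member at 1 FPKM in at least 6 libraries it gives the 3 genes most like it. The members and lists were chosen with earlier results of these data known. Neighbours on the other strand and marker lists were added as background. The alternatives tried were leaving out each library, summing the catalase rows, a joint fit of all libraries, no day term, a replicate block, robust shrinkage, median-ratio rescaling, quantile normalization, dropping the filter, and a pseudocount of 0.1. Tables were handled with Python 3.11.15, pandas 2.3.3 and NumPy 2.4.6, and figures with Matplotlib 3.10.9.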

Additional observations from a re-analysis of the deposited data

How the results depend on the processing

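Depth is unknown and the later days hold 1 library per strain, so day and library cannot be told apart there. Of the single values under settings other than a left-out library, 264 kept direction and side of the threshold, 17 lost a call, 5 gained one and 11 changed sign. With a library left out the counts were 279, 26, 7 and 27. With the replicate block at day 0, 158 genes and 0 members passed, against 529 genes and 2 members without it (ctl-1 at -1.81, adjusted p = 0.0705). The deviations of same-numbered libraries from their strain means correlated over genes at 0.06, -0.03 and -0.02. With 3 libraries per strain these values cannot tell whether same-numbered libraries shared a culture or batch. Day 0 gave 839 genes after quantile normalization, 1 member in the joint fit and 0 members with the catalase rows summed. Leaving out 1 library gave 81 to 1753 genes and 0 to 5 members, the highest without N2 replicate 2.

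At days 6 to 12, 1690 genes and 4 members passed. No filter gave 2 genes and 0 members, quantile normalization 873 and 2, median-ratio rescaling 3161 genes, no day term 134 and 0, and the summed catalase rows 2 members. Leaving out 1 library gave 0 to 1050 genes and 0 members. With age in N2, 4 members passed, 2 with the catalase rows summed and 2 to 4 with a library left out. The interaction had 315 genes and 0 members: 194 and 1 with a pseudocount of 0.1, 678 and 1 after median-ratio rescaling, and 58 to 2025 and 0 to 1 with a library left out. The causes were not tested.

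Signs reversed only for differences that had not passed. With age in N2, quantile normalization gave MXLOC_007021 -0.36, sod-3 0.27 and the summed locus -0.26, and median-ratio rescaling MXLOC_007021 -0.10, sod-1 -0.11 and the summed locus -0.13. With age in CN30, MXLOC_007021 was -0.16 and -0.086 under these, and sod-1 -0.27 under the second. The interaction of ctl-2 was -0.018 after quantile normalization and that of MXLOC_007021 -0.0084 after rescaling. With a library left out, the day-0 range was -0.10 to 0.24 for sod-4 and -0.22 to 0.036 for the summed locus. At days 6 to 12 it was -0.18 to 0.058 for MXLOC_007021, -0.20 to 0.86 for ctl-3 and -0.35 to 0.031 for sod-3. With age in N2 it was -0.43 to 0.014 for ctl-1, -0.18 to 0.24 for MXLOC_007021, -0.042 to 0.24 for sod-1 and -0.12 to 0.17 for the summed locus, and in CN30 -0.059 to 0.12 for sod-1 and -0.17 to 0.066 for the summed locus. The interaction ranges were -0.039 to 0.38 for MXLOC_007021, -0.21 to 0.064 for sod-1 and -0.25 to 0.041 for the summed locus.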

Other observations

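The genes that make superoxide or use peroxide were covered by a pair of lists. Of the NADPH oxidase and heme peroxidase genes, 8 of 9 tested fell in CN30 and 7 of 8 in N2, and 1 rose in each, skpo-1, which encodes a heme peroxidase. The list medians were -1.70 in CN30 and -1.19 in N2, beside 0.24 and 0.14 for all genes, of which 34.9% fell in CN30 and 32.0% in N2. skpo-1 averaged 146.5 ± 19.8 FPKM in CN30 at days 6 to 12, against 44.8 ± 1.67 at day 0 (log2 difference 1.68 ± 0.11, adjusted p = 2.98e-05), and 194.4 ± 20.0 in N2, against 35.97 ± 6.64 at day 0 (2.41 ± 0.15, adjusted p = 2.55e-05). The peroxidase gene mlt-7, needed for moulting, had 4.96 ± 0.47 FPKM in CN30 at days 6 to 12, against 57.7 ± 4.05 at day 0 (-3.30 ± 0.10, adjusted p = 1.1e-05). doxa-1, the maturation factor of the dual oxidase, had 1.49 ± 0.20 FPKM in CN30 at days 6 to 12, against 9.04 ± 0.24 at day 0 (-2.01 ± 0.12, adjusted p = 2.15e-05). Between strains 0 of 9 passed in limma at day 0 and 0 of 8 at days 6 to 12, with 1 and 3 at an unadjusted p under 0.05.

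Of 5 respiratory genes whose mutants are used to study superoxide, 4 fell and 1 rose with age in each strain, where 80.9% of all genes changed in CN30 and 72.7% in N2. The 4 include mev-1, which rests on values of 0. gas-1, a subunit of complex I, averaged 43.6 ± 6.05 FPKM in CN30 at days 6 to 12, against 122.6 ± 9.97 at day 0 (-1.48 ± 0.12, adjusted p = 5.35e-05). nuo-6, another complex I subunit, had 149 ± 1.26 FPKM in N2 at days 6 to 12, against 244 ± 9.66 at day 0 (-0.71 ± 0.06, adjusted p = 0.000105). mev-1, a subunit of complex II, was listed at 0 in all 6 later libraries, against 97.8 ± 8.36 FPKM in CN30 and 119.5 ± 4.66 in N2 at day 0, and such a 0 can be an estimate that failed.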
